A study of Rattus norvegicus with 24 samples.

Results

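The insulin-like growth factor axis was followed over the 6 groups of a rat urethra experiment through 10 genes, taken by symbol from the table of normalized gene counts: the ligands Igf1 and Igf2, the receptors Igf1r and Igf2r and the binding proteins Igfbp2, Igfbp3, Igfbp4, Igfbp5, Igfbp6 and Igfbp7. All 10 were found, each on 1 row of the 32883 genes in the table. The 24 libraries were made from urethras of 12-week-old virgin female Sprague-Dawley rats, wild type by their labels, and all of them, saline controls included, had undergone simulated vaginal delivery (SVD), a crush of the pudendal nerve combined with vaginal distension. An hour after the injury the rats received saline, allogeneic mesoangioblasts (MABs allo) or MABs allo transduced to overexpress VEGF (MABs allo-VEGF) into the aorta, and urethras were collected at 3d or 7d, with 4 samples in each of the 6 groups. Mesoangioblasts are vessel-associated progenitors grown from skeletal muscle, here from the hind limb of a young donor rat, and were marked or modified with lentiviral vectors. The cells were rat cells, so their transcripts and those of the host cannot be told apart. QuantSeq libraries were sequenced, which count transcript 3′ ends. Uninjured urethra was not analysed here.

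IGF-I and IGF-II are secreted growth factors that act mainly through the tyrosine kinase receptor encoded by Igf1r. The receptor encoded by Igf2r binds IGF-II and carries it to lysosomes. In the extracellular fluid the ligands are held by a family of binding proteins, which prolong their life, limit or target their access to the receptor and are released by proteolysis. In skeletal muscle, IGF-II is an autocrine signal of differentiating myoblasts, and IGF-I is made by many cells of injured tissue, macrophages and fibroblasts among them.

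The libraries held 2170695 to 10166052 reads, with a median of 5246798, and the median was lowest in MABs allo 3d (3452557). Genes of muscle, urothelium, fibroblasts and endothelium were counted in every group. A pair of libraries stood apart from their groups in the share of counts taken by AY172581.24, a gene with no other name in the table and the most counted gene in several samples, looked at after its values were seen. Replicate 6 of saline 3d had a share of 7.31%, against 0.409% to 2.11% in the other saline 3d samples. Replicate 4 of MABs allo-VEGF 3d had 3.46%, against 15.6% to 20.6% in its group. Each comparison at 3d is therefore given with all 24 samples and with the 22 that remain without these libraries. For Igf2, Igf1r, Igfbp3 and Igfbp7 the libraries left out were the saline 3d sample nearest the treated ones and the MABs allo-VEGF 3d sample nearest saline, so larger differences and cleaner separation in the 22 samples follow from leaving them out and are no separate evidence.

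The windows just upstream of the annotated starts are printed for the 6 members called in at least 1 comparison, so that the genes can be seen beside their values. They are the 250 bases before the start, taken from RefSeq (build GRCr8, which is not the build of the count table) and written 5′ to 3′ on the gene's own strand. Capitals mark each match to the GC box GGGCGG, the TATA box TATAAA or the E-box core CAGCTG on either strand. Of 33469 windows of this length, 30.5% held the first, 12.9% the second and 12% the third, and the 3 motifs do not overlap one another in their letters. All 10 genes had an entry, and Igf2 had 2.
Igf2, start site 1, chr1:207250476-207250725, minus strand: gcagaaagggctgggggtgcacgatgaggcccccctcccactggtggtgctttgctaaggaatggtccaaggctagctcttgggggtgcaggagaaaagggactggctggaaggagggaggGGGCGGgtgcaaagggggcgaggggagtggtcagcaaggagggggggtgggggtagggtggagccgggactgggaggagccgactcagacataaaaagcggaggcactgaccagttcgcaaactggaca
Igf2, start site 2, chr1:207253981-207254230, minus strand: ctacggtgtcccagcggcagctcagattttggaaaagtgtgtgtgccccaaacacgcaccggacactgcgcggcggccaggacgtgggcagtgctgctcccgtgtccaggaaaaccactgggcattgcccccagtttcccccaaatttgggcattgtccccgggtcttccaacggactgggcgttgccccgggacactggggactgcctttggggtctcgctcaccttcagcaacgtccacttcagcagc
Igf1r, chr1:130959747-130959996, plus strand: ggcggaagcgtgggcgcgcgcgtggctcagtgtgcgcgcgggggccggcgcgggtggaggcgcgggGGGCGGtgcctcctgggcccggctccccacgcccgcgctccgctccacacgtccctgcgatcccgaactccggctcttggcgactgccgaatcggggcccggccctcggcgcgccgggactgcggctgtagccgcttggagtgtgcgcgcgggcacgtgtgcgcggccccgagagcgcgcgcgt
Igfbp3, chr14:86277945-86278194, minus strand: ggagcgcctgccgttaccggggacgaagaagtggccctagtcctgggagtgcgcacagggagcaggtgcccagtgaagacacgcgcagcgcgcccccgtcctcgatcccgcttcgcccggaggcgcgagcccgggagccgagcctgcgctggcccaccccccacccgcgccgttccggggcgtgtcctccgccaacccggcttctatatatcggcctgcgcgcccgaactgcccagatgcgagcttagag
Igfbp7, chr14:31091486-31091735, plus strand: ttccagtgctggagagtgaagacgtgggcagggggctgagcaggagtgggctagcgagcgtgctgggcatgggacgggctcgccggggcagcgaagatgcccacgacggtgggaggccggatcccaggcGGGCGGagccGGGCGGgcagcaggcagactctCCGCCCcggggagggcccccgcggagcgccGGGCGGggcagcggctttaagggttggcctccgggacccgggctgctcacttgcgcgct
Igfbp5, chr9:81914188-81914437, minus strand: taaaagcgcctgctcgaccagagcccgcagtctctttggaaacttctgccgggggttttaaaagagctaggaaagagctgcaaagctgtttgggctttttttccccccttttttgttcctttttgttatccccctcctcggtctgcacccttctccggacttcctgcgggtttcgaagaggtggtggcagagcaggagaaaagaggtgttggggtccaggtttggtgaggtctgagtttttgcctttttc
Igfbp2, chr9:81864561-81864810, plus strand: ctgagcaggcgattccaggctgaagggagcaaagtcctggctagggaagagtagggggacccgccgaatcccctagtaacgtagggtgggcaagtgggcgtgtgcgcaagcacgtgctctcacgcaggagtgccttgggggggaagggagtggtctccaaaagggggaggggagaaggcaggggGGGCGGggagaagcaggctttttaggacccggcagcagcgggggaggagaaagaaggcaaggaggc

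The Igfbp7 window held 4 GC boxes. The windows of Igf1r, Igfbp2 and the first Igf2 start held 1 each, and the second Igf2 window and those of Igfbp3 and Igfbp5 held none of the 3 motifs. G and C made up 79.6% of the Igf1r window and 51.6% of that of Igfbp5, beside a median of 51.2% over all windows. Igfbp2 and Igfbp5 were next to each other on chromosome 9 in the RefSeq table and lay on opposite strands.

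At 3d, MABs allo treated urethras differed from saline controls in both arms of the axis. Igf2 and Igf1r were higher and Igfbp3 and Igfbp7 were lower, so 4 of the 10 genes were called, by an adjusted p under 0.05 and a log2 fold change beyond 1 either way (limma on log2(normalized count + 1), all 6 groups in 1 fit, adjusted over 16287 genes). The background in this comparison was 12.3% of all genes tested. With the 22 samples the same 4 genes were called, beside 18.1% of all genes. The median log2 fold change was -0.42 over the 10 members and 0.07 over all genes. When only the samples of the groups compared were fitted, none of the 10 was called.

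Igf2 (ENSRNOG00000020369), the ligand of fetal tissue and of differentiating muscle, was the only member that set the cell-treated 3d samples apart from all others. The saline 3d samples (replicates 6, 8, 9 and 10) had normalized counts of 141, 47.0, 57.2 and 130.2. In the MABs allo 3d samples (replicates 1 to 4) they were 433, 509, 434 and 439. The MABs allo-VEGF 3d samples (replicates 1 to 4) had 584, 583, 464 and 405. All 8 cell-treated samples at 3d lay above all 16 other samples, which ranged from 20.1 to 208, and the MABs allo-VEGF library that stood apart in its other counts was among the 8. The counts rested on 47 to 108 reads in these 8 samples and on 6 to 50 in the rest.

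The log2 fold change of Igf2 against saline 3d was 2.42 for MABs allo (SE 0.58, limma adjusted p = 0.0121) and 2.57 for MABs allo-VEGF (SE 0.58, limma adjusted p = 0.0753). The second passed the threshold in the 22 samples, with a log2 fold change of 2.92, and the first was 2.66 there. The first lost its call without replicate 8 of saline 3d, and also when only the groups compared were fitted. Igf2 is a gene the study itself displayed from these samples, so its direction here is not independent evidence.

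**Figure D1:**
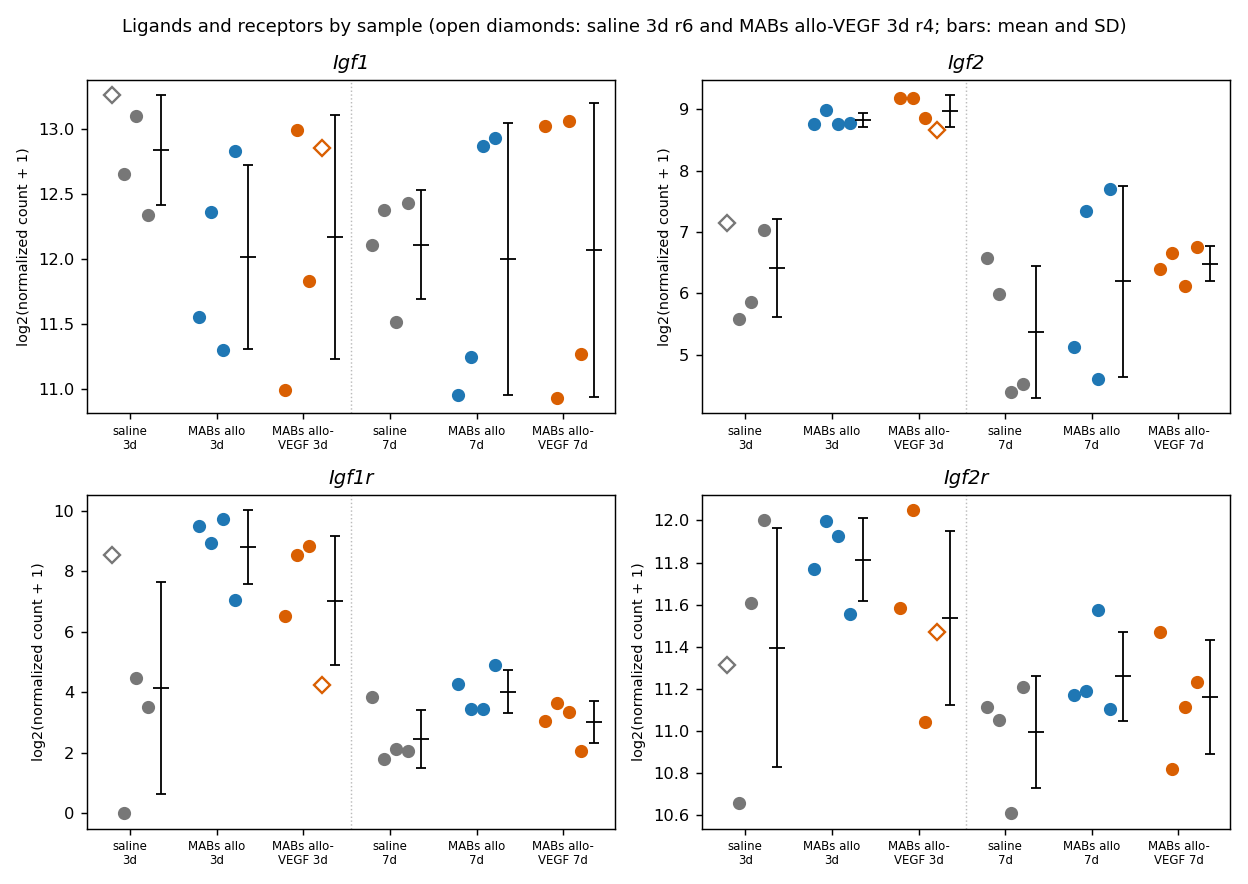
Level of the ligands and receptors in each of the 24 samples, as log2(normalized count + 1), by treatment and day, with 4 samples a group. Points are samples, the horizontal marks with bars are the mean and SD, and open diamonds are the pair of libraries that stood apart. All 8 cell-treated 3d samples lie above every other sample for Igf2, while Igf1 and Igf2r overlap between the treatments of each day.

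Genes of regenerating muscle, taken as a sum, divided the samples as Igf2 did. Of 10 listed markers 9 were found in the table: myogenic factors, embryonic and neonatal myosins, Mymk, Mymx and an acetylcholine receptor subunit. Their summed normalized count was 13157 to 33179 in MABs allo 3d and 11319 to 18152 in MABs allo-VEGF 3d. It was 1930 to 7744 in saline 3d, and the 16 samples other than the cell-treated 3d ones reached at most 8716. None of these markers was at 0 throughout a group. Their part in the Igf2 difference was not tested, and in such bulk tissue a change in the number of cells of a type and a change in RNA per cell cannot be told apart. The 3 genes whose levels followed Igf2 most closely over the 24 samples were Ric1, Zfp871 and Fxr1, with Pearson's r of 0.929, 0.910 and 0.906. As the Igf2 levels fall into separate high and low sets, these values describe the same split of the samples.

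Igf1r (ENSRNOG00000014187), the signalling receptor, was low in most of the urethras. The saline 3d samples had normalized counts of 368, 0, 21.4 and 10.6, where the 0 stands for no read among 4862578, which allows up to 11.8. The MABs allo 3d samples had 717, 487, 849 and 130.2. In the MABs allo-VEGF 3d samples it was 91.9, 367, 454 and 17.8. Each group at 3d thus overlapped the next, because replicate 6 of saline was high and replicate 4 of MABs allo-VEGF was low. At 7d the 12 samples held 1 to 7 reads each and ranged from 2.49 to 29.1.

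The log2 fold change of Igf1r against saline 3d was 4.66 for MABs allo (SE 1.20, limma adjusted p = 0.0156). It was 2.89 for MABs allo-VEGF (SE 1.20, limma adjusted p = 0.200). In the 22 samples the changes were 6.12 and 5.29 and both were called, but these samples leave out the saline 3d library with the most Igf1r and the MABs allo-VEGF 3d library with the least. With so few reads in the controls these folds depend on the pseudocount, and neither DESeq2 nor edgeR on the recovered reads called Igf1r in the 24 samples for MABs allo against saline. Leaving out replicate 8 of saline 3d or replicate 1 of MABs allo 3d also ended the call.

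The level of Igf1r went with the share of counts taken by AY172581.24. In 8 samples this gene took 7.31% to 20.7% of the counts, and Igf1r was 91.9 to 849 there. In the other 16 it took 0.269% to 3.46%, and Igf1r was 0 to 29.1. The 8 were the 4 MABs allo 3d samples, MABs allo-VEGF 3d replicates 1, 2 and 3 and saline 3d replicate 6. The part of this share in the Igf1r difference was not tested. For Igf2 both libraries that stood apart stayed with their treatment groups, but at the near edge. It was 141 in saline 3d replicate 6, the highest saline 3d value. In MABs allo-VEGF 3d replicate 4 it was 405, the lowest of the cell-treated 3d values. The part of the share in the Igf2 values was not tested either.

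**Figure D2:**
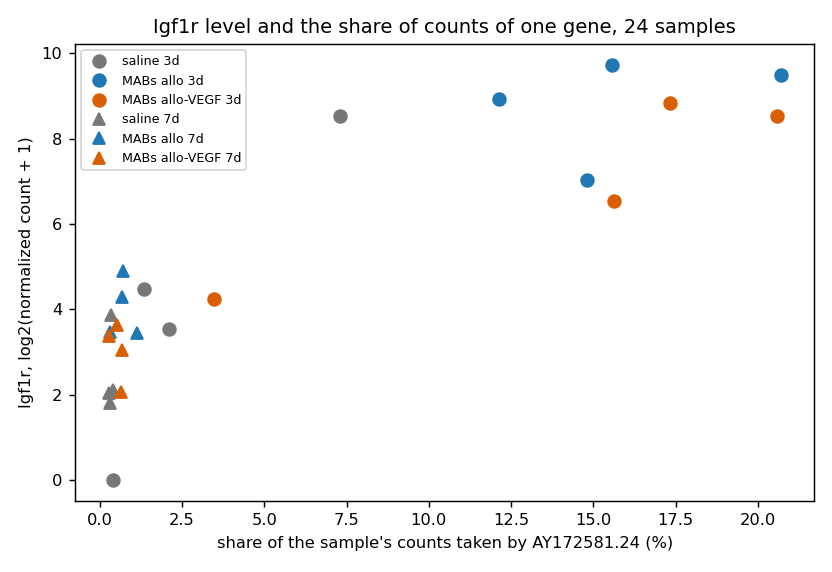
Level of Igf1r, as log2(normalized count + 1), against the percent of each sample's counts taken by AY172581.24, with 1 point per sample and 24 in all. Circles are 3d and triangles 7d samples, coloured by treatment. Samples above 7% on the horizontal axis, a saline sample among them, hold all Igf1r values over 29.1.

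Igf1 and Igf2r did not pass the test at 3d. The normalized count of Igf1 was 5162 to 9817 in saline 3d, 2520.2 to 7291 in MABs allo 3d and 2033 to 8159 in MABs allo-VEGF 3d. Its log2 fold change for MABs allo was -0.83, with a 95% interval of -1.91 to 0.26. Igf2r, which clears IGF-II from the cell surface, was 1615 to 4103, 3011 to 4092 and 2109 to 4234 in the same 3 groups. Its log2 fold change for MABs allo was 0.42, with an interval of -0.08 to 0.92. For both genes the 3 groups overlapped.

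Igfbp7 (ENSRNOG00000002050), a secreted protein of vessels and stroma that binds IGFs weakly, was lower in MABs allo 3d. Its normalized counts were 16473, 49364, 29255 and 22226 in saline 3d, 3884, 10208, 5354 and 8566 in MABs allo 3d and 8224, 11676, 6200.3 and 23821 in MABs allo-VEGF 3d. All MABs allo samples lay under all saline samples. In the MABs allo-VEGF group 3 of 4 samples did, and replicate 4 was at the saline level. Igfbp7 fell by 2.05 on the log2 scale with MABs allo (SE 0.38, limma adjusted p = 0.0059). With MABs allo-VEGF the log2 fold change was -1.30 (SE 0.38, limma adjusted p = 0.101) in the 24 samples and -1.92, past the threshold, in the 22. Its MABs allo call was kept whichever sample of the 24 was left out and in the 22 samples, but not when only the groups compared were fitted.

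Igfbp3 (ENSRNOG00000061910), the main carrier of IGFs in serum, was also lower. Its normalized counts were 9221, 71306, 41102 and 28747 in saline 3d. They were 3763, 7539, 5474 and 14126 in MABs allo 3d. The MABs allo-VEGF 3d samples had 3839, 9768, 7557 and 18999. Replicate 6 of saline was the only saline sample inside the range of the treated ones. Igfbp3 fell by 2.12 on the log2 scale with MABs allo (SE 0.64, limma adjusted p = 0.0300), and for MABs allo-VEGF the log2 fold change was -1.79 (SE 0.64, limma adjusted p = 0.146). In the 22 samples the changes were -2.68 and -2.74 and both were called. The first was lost when replicate 8, 9 or 10 of saline 3d or replicate 1 or 3 of MABs allo 3d was left out of the 24. At 3d, Igfbp3 and Igfbp7 also divided by the share of AY172581.24. In the 8 samples of high share, saline replicate 6 among them, they were 3763 to 14126 and 3884 to 16473. In the 3d samples of low share, MABs allo-VEGF replicate 4 among them, they were 18999 to 71306 and 22226 to 49364. The 7d samples, all of low share, overlapped the high-share ones, at 3814 to 42090 and 12921 to 30754. The part of this share was not tested.

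The saline sample with the highest Igfbp3 and Igfbp7, replicate 8 at 3d, also differed in the markers of other tissue. Its summed count of 10 urothelial and squamous epithelial genes was 2853, against 27839 to 30992 in the other saline 3d samples. Its sum of 5 Schwann cell genes was 33419, against 2766 to 4573. In MABs allo 3d this sum was 1221 to 1915, below all saline 3d samples, and in MABs allo-VEGF 3d it was 2606 to 10268. At 7d the highest Igfbp3, 42090.2 in MABs allo-VEGF replicate 11, was likewise in the sample with the highest Schwann cell sum, 47400. The highest Igfbp7 at 7d, 30754, was in MABs allo-VEGF replicate 6, where this sum was 2042. The part of these cells in the Igfbp3 and Igfbp7 values was not tested.

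Igfbp4, a binding protein cleaved by pregnancy-associated plasma proteins, did not pass the test but did separate the groups. It was 11588 to 16979.8 in saline 3d and 4445 to 9793 in MABs allo 3d, with no overlap. The log2 fold change was -1.12 (SE 0.44, limma adjusted p = 0.0823). In MABs allo-VEGF 3d it was 4347 to 14582 and overlapped saline. Igfbp4 was also the gene whose level followed that of Igf1 most closely over the 24 samples, with Pearson's r of 0.785, ahead of Lox (0.778) and Tmed3 (0.773).

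Fibroblast genes were also lower in the MABs allo 3d samples than in all saline 3d samples. The summed count of the 7 listed markers found (8 listed) was 343636 to 519457 in saline 3d, 56751 to 307169 in MABs allo 3d and 97610 to 643895 in MABs allo-VEGF 3d. The sum of 8 macrophage genes was 11983 to 24306, 1243 to 13606 and 4493 to 20819 in the same groups. None of these markers was at 0 throughout a group. The sum of 5 mast cell genes was 523 to 1909 in saline 3d, 230 to 369 in MABs allo 3d and 178 to 608 in MABs allo-VEGF 3d, with Mcpt1 at 0 in all samples of both treated groups and Hdc in those of MABs allo. The part of these cell types in the differences was not tested.

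Igfbp2, Igfbp5 and Igfbp6 were not called against saline at 3d. Igfbp5, which is made by muscle and bone and binds the extracellular matrix, was higher in all 4 MABs allo samples (27566 to 37903) than in all 4 saline samples (12159 to 27423), with a log2 fold change of 0.66 (SE 0.29, limma adjusted p = 0.116). Igfbp2 was 474 to 5178 in saline and 589 to 2029.7 with MABs allo. Igfbp6, which prefers IGF-II, was 7028 to 10106 in saline and 3657 to 16101 with MABs allo. Counted over the 10 members, the groups did not overlap for 4 genes (Igf2 and Igfbp5 higher, Igfbp4 and Igfbp7 lower), beside 14.7% of all genes tested. In the 22 samples it was 6 genes, with Igf1r and Igfbp3 added, beside 28% of all genes.

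For MABs allo-VEGF against saline at 3d, limma called none of the 10 genes in the 24 samples, where 0.0307% of all genes were called. At an unadjusted p under 0.05, 4 genes passed (Igf2, Igf1r, Igfbp3 and Igfbp7). DESeq2 called 2 of the 10, Igf2 and Igfbp7, beside 397 of all 16287 genes, and edgeR 0, beside 1. In the 22 samples 4 were called, the same 4 genes as with MABs allo, beside 13.6% of all genes. Both comparisons share the saline samples. Leaving out replicate 6 of saline or replicate 4 of MABs allo-VEGF alone was enough to give these 4 calls. Over all genes, 1112 and 1258 were then called, against 5 in the 24 samples. In the 24 samples only Igf2 had groups that did not overlap, beside 4% of all genes. In the 22 samples 6 members did (Igf2, Igf1r and Igfbp5 higher, Igfbp3, Igfbp4 and Igfbp7 lower), beside 33.1% of all genes.

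**Figure D3:**
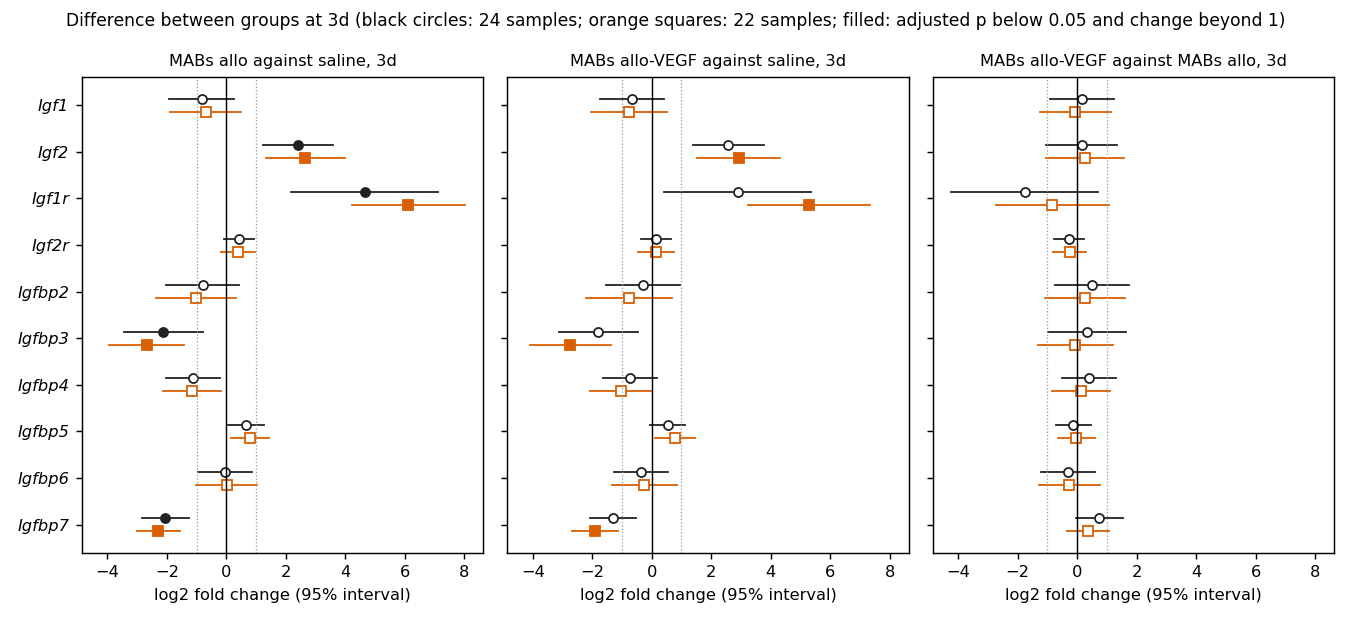
Log2 fold change of each member at 3d with its 95% interval (limma, log2(normalized count + 1)), for MABs allo against saline, MABs allo-VEGF against saline and MABs allo-VEGF against MABs allo. Black circles are the fit of 24 samples and orange squares that of 22, filled where the adjusted p was under 0.05 and the change beyond 1. Igf2, Igf1r, Igfbp3 and Igfbp7 are filled in the first panel in both fits and in the second in the fit of 22 samples, and nothing is filled in the third.

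Between both cell treatments at 3d no member was called by limma, DESeq2 or edgeR. In the limma fit 0 members had an unadjusted p under 0.05, and 0.00614% of all genes were called, or 0.0184% in the 22 samples. The interval of the difference, MABs allo-VEGF minus MABs allo on the log2 scale, was -1.04 to 1.34 for Igf2 and -0.05 to 1.53 for Igfbp7. For Igf1r it was -4.24 to 0.71, a wide range for the receptor.

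At 7d no difference in the axis passed the test. No member was called by limma, DESeq2 or edgeR for MABs allo against saline, MABs allo-VEGF against saline or MABs allo-VEGF against MABs allo, and limma called 0% of all genes in each. Of all 16287 genes, DESeq2 called 0, 31 and 4 in the same order, and edgeR called 0 in each. At an unadjusted p under 0.05 limma gave 0, 1 and 0 members in these comparisons. The 1 was Igfbp5, at 7008, 3774, 4642 and 6188 in saline 7d (replicates 1, 2, 3 and 5) and 11561, 8089, 16100.0 and 7499 in MABs allo-VEGF 7d (replicates 6, 7, 11 and 12). Its groups did not overlap, as for 6.04% of all genes, and the log2 fold change was 0.97 (SE 0.29, limma adjusted p = 0.478). For Igf2 the log2 fold change was 0.83 (95% interval -0.36 to 2.02) with MABs allo and 1.11 (-0.08 to 2.30) with MABs allo-VEGF.

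Whether the treatment effects at 3d differed from those at 7d was tested by the interaction term. With 24 samples no member was called for either treatment (0% of all genes by limma), although 2 members had an unadjusted p under 0.05 for each, Igfbp3 and Igfbp7. DESeq2 called 1, Igfbp7 with MABs allo, beside 90 of all 16287 genes, and edgeR 0. With 22 samples Igf1r, Igfbp3 and Igfbp7 were called for MABs allo, beside 3.56% of all genes, and also for MABs allo-VEGF, beside 3.59%. When 1 more sample was left out, the MABs allo calls remained in 4 of 15 fits for Igf1r, 4 for Igfbp3 and 14 for Igfbp7, which was lost without saline 3d replicate 8. For MABs allo-VEGF they remained in 3, 10 and 9 of 14 fits. The interaction of Igf2 was not called in either fit. It was 1.59 (SE 0.81) for MABs allo and 1.46 (SE 0.81) for MABs allo-VEGF in the 24 samples.

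Igfbp5 was higher at 3d than at 7d in each of the 3 treatments. In the 12 samples of 3d its normalized counts ran from 12159 to 48681 with a median of 27494, and in the 12 of 7d from 3774 to 16100.0 with a median of 7395. The difference was 1.96 with saline on the log2 scale (SE 0.29, limma adjusted p = 0.00233), 2.03 with MABs allo (SE 0.29, limma adjusted p = 6.76e-05) and 1.52 with MABs allo-VEGF (SE 0.29, limma adjusted p = 0.000873). Within each treatment the days did not overlap. In the saline groups Igfbp5 was the only member called by limma, beside 3.19% of all genes, or 0.19% in the 22 samples. DESeq2 and edgeR each called 3 there, Igf1r, Igfbp3 and Igfbp5, beside 1387 and 988 of all 16287 genes. Of the saline 3d samples, replicate 6 had an Igf1r of 368 and the others 0 to 21.4. The saline 7d samples had 2.49 to 13.5. This log2 fold change of Igf1r ran from 0.21 to 4.18 over the alternatives. Igfbp5 was also the only one whose days did not overlap with saline, beside 10.6% of genes, and in the 22 samples Igfbp3 joined it, beside 13.2%. When only the saline samples were fitted it was not called. In the 22 samples its saline call was also lost without saline 3d replicate 9 or 10, or saline 7d replicate 2 or 3.

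Igfbp2, its neighbour on chromosome 9 and a binding protein abundant in fetal tissue, was lower at 3d than at 7d in the cell-treated rats. The MABs allo samples had 589, 2029.7, 859 and 960.2 at 3d and 6827, 4126, 5622 and 3673 at 7d (replicates 7.2, 9, 11 and 13), with no overlap. The MABs allo-VEGF samples had 2590.0, 483, 1352 and 2347 at 3d and 6261, 5134, 1840.3 and 7361 at 7d, where replicate 11 fell inside the 3d range. Igfbp2 at 3d was lower than at 7d by a log2 fold change of -2.30 with MABs allo (SE 0.60, limma adjusted p = 0.00559) and -1.69 with MABs allo-VEGF (SE 0.60, limma adjusted p = 0.0479). In saline it was -0.80 (SE 0.60, limma adjusted p = 0.511), with 474 to 5178 at 3d and 2033 to 4421 at 7d.

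With MABs allo, 5 members differed between the days, beside 23% of all genes. Igf2 (2.63), Igf1r (4.77) and Igfbp5 were higher at 3d, and Igfbp2 and Igfbp7 (-1.66) were lower, each value being a log2 fold change. The days did not overlap for the same 5 members, beside 27% of genes. With MABs allo-VEGF the same 5 were called, beside 15.3% of genes, or 20.3% in the 22 samples. The log2 fold changes there were 2.50 for Igf2, 4.01 for Igf1r and -1.13 for Igfbp7, and the days did not overlap for Igf2, Igf1r and Igfbp5, beside 21.8% of genes. Igfbp7 joined them in the 22 samples, beside 35.2%. Igfbp7 was not called by DESeq2 or edgeR in this comparison. Both of the lower genes and Igf1r were lost from this set of calls when some single samples were left out, with 2 calls remaining without MABs allo-VEGF 3d replicate 2 or 3 and 3 without 7d replicate 6 or 12. Igf2 and Igfbp5 were called in all 8 of these fits. The days also differed in the share of counts of AY172581.24. It was 12.1% to 20.7% in MABs allo 3d and 0.31% to 1.14% in MABs allo 7d. In MABs allo-VEGF it was 3.46% to 20.6% at 3d and 0.29% to 0.68% at 7d. The MABs allo libraries held at most 4491900 reads at 3d and at least 5478333 at 7d. The part of share and depth in the differences between days was not tested.

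**Figure D4:**
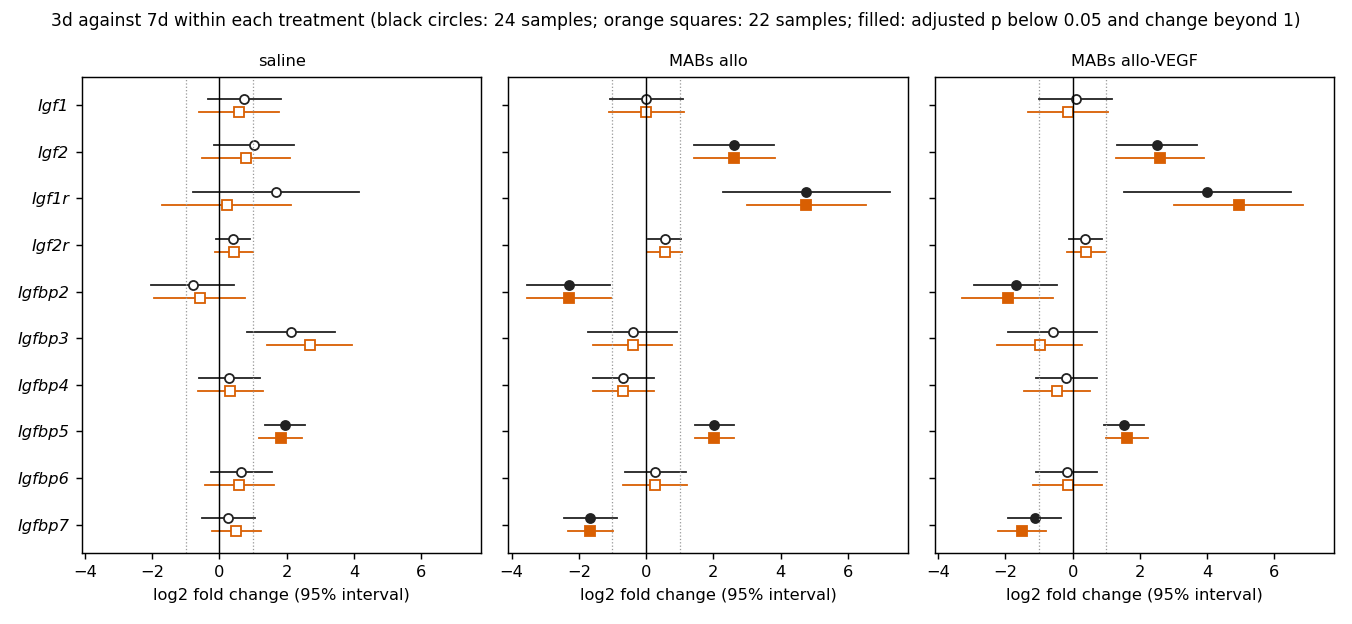
Log2 fold change of each member at 3d against 7d within saline, MABs allo and MABs allo-VEGF, with its 95% interval (limma, log2(normalized count + 1)). Black circles are the fit of 24 samples and orange squares that of 22, filled where the adjusted p was under 0.05 and the change beyond 1. Igfbp5 lies to the right of 1 and is filled in every panel, and Igf2, Igf1r, Igfbp2 and Igfbp7 are filled in the MABs allo and MABs allo-VEGF panels.

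Igfbp3 was not called between the days in any treatment with 24 samples. In saline its normalized counts were 9221 to 71306 at 3d and 3814 to 16361 at 7d, a log2 fold change of 2.13 (SE 0.64, limma adjusted p = 0.0606) that passed with DESeq2 and edgeR. With MABs allo it was -0.39 and with MABs allo-VEGF -0.60, neither called. Leaving out saline 7d replicate 1, which had 16361, added Igfbp3 to the saline calls. Markers of other tissue also differed between the days. The summed count of 8 smooth muscle genes was 80622 to 147613 at 3d and 197806 to 225077 at 7d with MABs allo, with no overlap. It was 23420 to 182874 and 161273 to 319382 with saline, and 58558 to 130337 and 121976 to 289697 with MABs allo-VEGF, which overlapped. The sum of 6 adipocyte genes had medians of 1185 at 3d and 28807 at 7d with saline, 1114 and 15857 with MABs allo, and 991 and 1831 with MABs allo-VEGF. None of these markers was at 0 throughout a group, and their part in the differences between days was not tested.

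**Figure D5:**
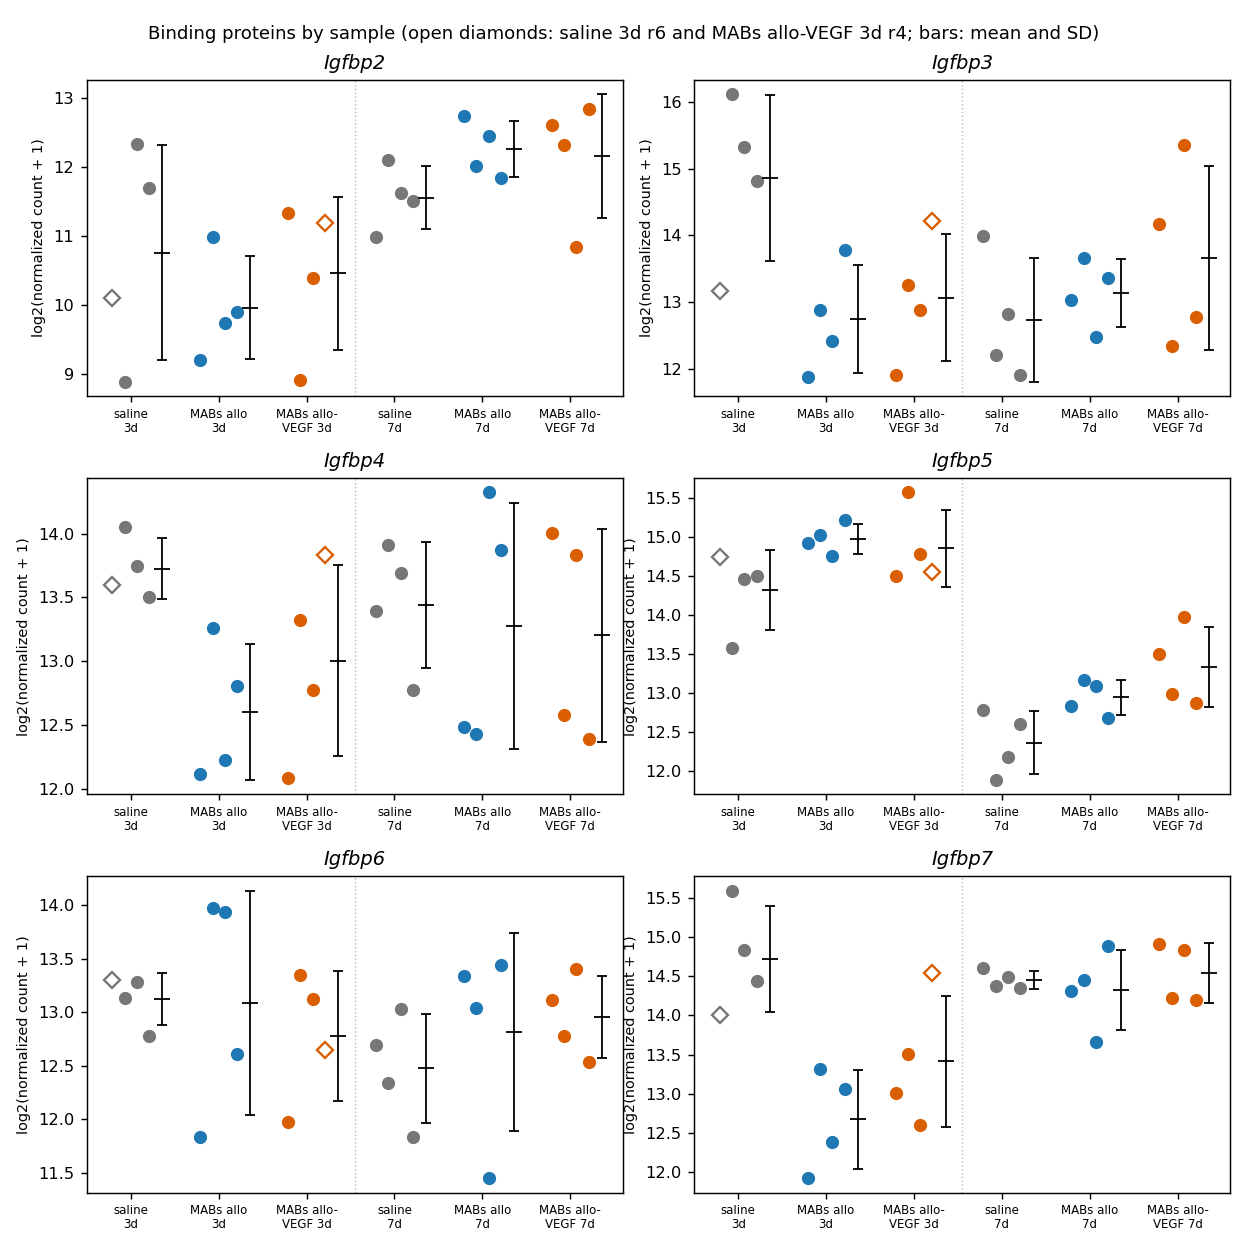
Level of the 6 binding proteins in each of the 24 samples, as log2(normalized count + 1), by treatment and day. Points are samples, the horizontal marks with bars are the mean and SD of 4 samples, and open diamonds are the pair of libraries that stood apart. Igfbp5 is higher at 3d than at 7d in every treatment, and Igfbp7 has its lowest group mean in MABs allo 3d, whose samples overlap those of MABs allo-VEGF 3d.

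In order of the group means, Igf2 was highest in MABs allo-VEGF 3d (509 ± 89.3, SD, n = 4) and MABs allo 3d (454 ± 36.8), which overlapped. After a gap came MABs allo 7d (107 ± 92.1), saline 3d (93.9 ± 48.6), MABs allo-VEGF 7d (89.7 ± 17.4) and saline 7d (49.8 ± 35.7), each overlapping the next. It was the only member with such a gap: for the other 9, every group overlapped the next in the order of means. Igfbp5 ran from MABs allo 3d (32488 ± 4323) to saline 7d (5403 ± 1464). Igfbp7 ran from saline 3d (29330 ± 14343) to MABs allo 3d (7003 ± 2896).

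Of the MABs allo-VEGF 7d rats, 2 samples, replicates 6 and 7, carried a label of recovery. Against the 2 others no member was called by limma, DESeq2 or edgeR. In the limma fit 0 members had an unadjusted p under 0.05 and 0% of all genes were called. Over all 16287 genes, DESeq2 called 1 and edgeR 0. The largest of the 10 log2 fold changes in size was that of Igfbp3, -0.81, with a 95% interval of -2.69 to 1.07.

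Around these members, 52 other genes were listed, covering insulin and growth hormone, other binding proteins and their proteases, and signalling below the receptors, of which 49 were in the table and 43 were tested. For MABs allo against saline at 3d, 7 of the 43 rose and 1 fell, or 18.6%, beside 12.3% of all genes. With MABs allo-VEGF 0 were called by limma, with 9 at an unadjusted p under 0.05, and in the 22 samples 7 rose, or 16.3%, beside 13.6%. The gene that fell with MABs allo was Htra1, a secreted protease that cleaves binding proteins, with a log2 fold change of -1.72. Between the days 12 were higher and 2 lower at 3d with MABs allo, or 32.6%, beside 23% of all genes. With MABs allo-VEGF it was 7 and 3, or 23.3%, beside 15.3%, and 12 and 3 in the 22 samples, or 34.9%, beside 20.3%. With saline limma called 0, where 10 had an unadjusted p under 0.05. The lower genes were Irs2 and Akt1 with MABs allo and Insrr, Irs2 and Stc1 with MABs allo-VEGF. Htra1, Irs2 and Insrr are named after their values were seen. Over the 43 genes the median log2 fold change for MABs allo against saline was 0.11.

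Insr, the insulin receptor, which forms hybrids with the IGF-I receptor, was among those that rose with MABs allo at 3d. Its normalized counts were 47.0 to 368 in saline 3d and 163 to 1015 in MABs allo 3d, which overlapped. The log2 fold change was 1.91 (SE 0.60, limma adjusted p = 0.0357). Of the PI3-kinase subunits, Pik3r1, the regulatory p85 subunit, was 737 to 2007 in saline 3d and 2734 to 3942 in MABs allo 3d, a log2 fold change of 1.38 (limma adjusted p = 0.0194). Pik3cb, a catalytic subunit, was 0 to 20.7 and 16.3 to 149, a log2 fold change of 4.04 (limma adjusted p = 0.0134) that rests on at most 6 reads in any saline 3d sample.

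Foxo1, a transcription factor that Akt keeps out of the nucleus, was 51.0 to 262 in saline 3d, 407 to 711 in MABs allo 3d and 236 to 592 in MABs allo-VEGF 3d. Its log2 fold change was 2.23 with MABs allo (limma adjusted p = 0.0141). At 7d it reached at most 178 with MABs allo, 90.7 with MABs allo-VEGF and 40.2 with saline. Gsk3b, a kinase that Akt inhibits, rose by a log2 fold change of 1.41 (limma adjusted p = 0.0156). Akt1 itself was not called against saline at 3d. It was lower at 3d than at 7d with MABs allo, 1634 to 2298 against 3296 to 6325, by a log2 fold change of -1.12 (limma adjusted p = 0.000267).

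Tsc1, an inhibitor of mTOR signalling, was 70.5 to 378 in MABs allo 3d and 0 to 21.7 in MABs allo 7d (log2 fold change 4.95, limma adjusted p = 0.00166). Stc1, which blocks the proteases that free IGFs from Igfbp4, was 621 to 833 in MABs allo-VEGF 3d and 1875 to 2453 in MABs allo-VEGF 7d (log2 fold change -1.56, limma adjusted p = 0.000621). Igfbp1, a binding protein made mainly by liver, had at most 6 reads in any sample and was called in none of the comparisons.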

How the data were processed

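RNA of 24 urethra samples, in 6 groups of 4 by the treatment and day of their labels, was sequenced by the authors with QuantSeq 3′ libraries. The authors trimmed adapters, used HISAT2 for alignment to Rnor6.0, left out reads that mapped more than once, counted genes with HTSeq and deposited normalized counts as the signal per gene, that is gene counts divided by the DESeq2 size factor of each sample. Divided by the worth of 1 read (1.67 to 9.23 by sample), 100% of the values came out whole within 0.001, so whole reads were recovered.

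The test was limma 3.58.1 (R 4.3.3; lmFit and eBayes with a trend) on log2(normalized count + 1), with genes of a mean of at least 2 and all 6 groups in 1 fit. It was chosen because the deposited values are normalized. It stayed the main test once whole reads were recovered, with count tests on them as alternatives. P-values were two-sided and adjusted over all genes by the Benjamini-Hochberg method, and a call needed an adjusted p under 0.05 with a log2 fold change above 1 in size. Fold changes of low genes depend on this scale and on the samples kept. That of Igf1r for MABs allo against saline at 3d ran from 2.30 to 6.12 on the log2 scale over the alternatives. P-values rest on the spread between samples within groups, pooled over all 6 groups of the fit. The labels do not say that each sample came from a separate animal. The 10 members, the other pathway genes and the marker lists were chosen with earlier results of these data known. Of the other pathway genes, those called in a comparison were named, at most 8 by smallest adjusted p, with Igfbp1 and Insr, and for Igf1 and Igf2 the 3 genes of highest Pearson's r.

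Alternatives were the 22 samples without the pair of libraries that stood apart, a pseudocount of 5, no filter or a mean of 10, quantile normalization, equal totals, only the groups compared, each replicate left out, and DESeq2 1.42.0 and edgeR 4.0.16 on the recovered reads. For MABs allo against saline at 3d, DESeq2 called 1927 of 16287 genes, edgeR 1342 and limma 1997. The limma procedure was tested on simulated data. Irs4, Pappa and H19 were not analysed here. Promoter windows came from RefSeq (GRCr8).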

Additional observations from a re-analysis of the deposited data

Results flagged for a closer look

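Among the members, 4 groups held a sample whose gap to the nearest other sample was large for a group of 4 (Dixon's criterion at 95%), among the 10 genes in 6 groups, where chance gives about 1 in 20. Igf1r in saline 3d replicate 6 was 368, against 0 to 21.4 in the other saline 3d samples, and this is a library that stood apart in other genes. Igf1r in saline 7d replicate 1 was 13.5, or 4 reads, against 2.49 to 3.35, or 1 read each. Igf2 in MABs allo 3d replicate 2 was 509, against 433 to 439, all far above saline. Igf2r in MABs allo 7d replicate 11, the deepest library, was 3044, against 2204 to 2334. The causes were not tested.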

How the results depend on the processing

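No direction turned among the called members. Of the fold changes of single members under the alternatives, 2106 kept their side of the threshold, 28 gained it and 36 lost it. For MABs allo against saline at 3d (4 members called), fitting only the groups compared called 0, and leaving out a sample gave 1 to 4. For MABs allo-VEGF against saline at 3d (0), the 22 samples gave 4, a pseudocount of 5 gave 1, DESeq2 gave 2 and leaving out a sample gave 0 to 4. Between the days in saline (1), DESeq2 and edgeR each gave 3, only the groups compared 0, leaving out a sample 1 to 2, and doing so within the 22 samples 0 to 2. Between the days with MABs allo-VEGF (5), no filter, quantile normalization and only the groups compared gave 3 each, and leaving out a sample 2 to 5. The interaction with MABs allo (0) gave 3 in the 22 samples and 1 with DESeq2, and that with MABs allo-VEGF (0) gave 3 in the 22 samples. Leaving out a further sample of the 22 took each of them to between 0 and 3, with 0 without saline 3d replicate 8 in both, and 0 also without MABs allo-VEGF 3d replicate 3 or saline 7d replicate 5 in the second, while the first gave 1 in 8 of 15 fits, that without MABs allo 7d replicate 7.2 among them. Leaving samples out of the 22 was chosen after seeing the data. The causes were not tested. Scaling each sample to the same total moved the median log2 fold change of all genes for MABs allo against saline at 3d to -0.19, took the calls from 1531 higher and 466 lower to 1102 and 1021, and added Igfbp4 to the 4 members. Quantile normalization moved that median to -0.14 (1253 higher, 975 lower), and between the days to -0.21 with MABs allo (2186 and 1847, from 2765 and 986) and with MABs allo-VEGF (1645 and 777, from 2132 and 365). Replicate numbers 1 to 4 recur in both cell-treated 3d groups, and same-numbered samples correlated at 0.222, 0.151, 0.0734 and 0.254, with 3 of 4 closest to their own number, a hint of pairing from the data. As number 3 stayed under the 0.1 asked of every pair and the labels tie no numbers together, the numbers were not taken to pair samples. With the replicate block 0 members were called, as without it. Depth limits Igf1r, which rested on 1 to 7 reads in every 7d sample.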
